A study of Mus musculus with 7 samples.

Results

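The mouse genes whose symbols start with Nduf encode parts of respiratory complex I and proteins that help to build it. All protein-coding genes with such a symbol in the count table were taken, 46 of 53715 gene identifiers. They are 38 subunit genes and 8 assembly factor genes (Ndufaf1 to Ndufaf8). All 46 passed the filter on low counts, which left 15123 genes to test. The samples were interscapular brown fat pads, frozen and extracted with Isogen, of male C57BL/6J mice aged 10 weeks, the labels listing each sample as a separate individual. Wild-type mice (WT) had 3 libraries and mice lacking PGAM5 (KO), a protein phosphatase of mitochondria, also had 3. KO replicate 4 was not analysed here. Libraries were made from poly(A) RNA with a stranded kit, and the comparison of WT with KO addresses what loss of PGAM5 changes in the RNA of this tissue.

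Complex I is the entry point of electrons from NADH into the respiratory chain of the inner mitochondrial membrane. Its matrix arm holds the N module, which oxidises NADH, and the Q module, which reduces ubiquinone, and its membrane arm pumps protons. Core subunits carry out catalysis, 7 of them encoded in the nucleus and the other 7 in mitochondrial DNA, and accessory subunits surround them. Assembly factors act while the enzyme is built and are not part of the finished complex. Brown fat is rich in mitochondria, and its uncoupling protein UCP1 turns the proton gradient built by the chain into heat.

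None of the 46 Nduf genes passed the test of KO against WT. Genes were called at p of 0.05 after Benjamini-Hochberg adjustment in edgeR's quasi-likelihood test, and of all 15123 genes 9 passed (0.0595%). At an unadjusted p under 0.05 the Nduf genes also numbered 0, beside 11.8% of all genes tested. The smallest edgeR adjusted p among them was 0.434, that of Ndufb9. DESeq2, which called 0.384% of the genes it tested, called 0 of the 46 with 1 at an unadjusted p under 0.05, and limma-voom likewise called 0 with 1, in both cases Ndufb9. Fold changes were small for most genes but their errors were not. The 95% interval of the log2 fold change lay within a doubling or halving (-1 to 1) for 32 of 38 subunits and 7 of 8 assembly factors. It reached past that range for Ndufa12, Ndufs6, Ndufa5, Ndufs5, Ndufb10, Ndufb6 and Ndufaf2. These p-values measure the spread between 3 mice and 3 mice.

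Total counts ran from 18034204 to 33617762 per library. Genes of the mitochondrial genome took from 19.7% of counts in KO 3 to 43.0% in WT 2, and these 2 libraries stand apart in what follows. Counts of Pgam5 itself were 167, 122 and 186 in WT, against 1, 3 and 11 in KO. Of 12 brown adipocyte markers all were detected, with summed levels of 13689 to 17075 CPM (counts as a rate per library total, scaled by TMM factors) in WT and 15731 to 17939 CPM in KO. Of these 12, 4 had a log2 fold change above 0, 0 passed the threshold and 2 had an unadjusted p under 0.05, both with every KO library above every WT library. They were Ucp1 (log2 1.06, SE 0.28) and Elovl3, a fatty acid elongase (log2 2.99, SE 0.65). Elovl3 had 3.11, 1.80 and 3.27 CPM in WT and 10.9, 7.34 and 48.2 CPM in KO, with KO 3 far above the rest. Over all genes tested, 11.8% had an unadjusted p under 0.05, and 10.1% had every KO library above every WT library. Of 12 skeletal muscle markers 8 had enough counts to test, and their summed level differed widely between mice, from 8.12 to 44.6 CPM in WT and from 2.001 to 36.6 CPM in KO. In whole tissue, fewer cells of a type and less RNA per cell cannot be told apart.

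Subunit RNAs were far more abundant than those of assembly factors. Per kb of annotated exon, the 38 subunits had a median WT level of 197 CPM and the 8 assembly factors one of 16.1 CPM. The highest assembly factor, Ndufaf1, stood at 24.7 CPM per kb, and 36 of the 38 subunits lay above it. Ndufa4, first named as a complex I subunit and now placed in complex IV, led with 801 ± 92.4 CPM per kb (SD, n = 3). Ndufa1, a small membrane-arm subunit needed for assembly, came next at 530 ± 112 CPM per kb, followed by Ndufc2 at 467 ± 167 and Ndufb3 at 437 ± 129 CPM per kb. The order of these last 3 was not separated by their spread. At the other end, Ndufa4l2, a relative of Ndufa4, had 3.16 ± 0.220 CPM per kb, below every assembly factor. Ndufb2 followed among the subunits with 10.1 ± 3.30 CPM per kb. Its annotated exons span 5628 bases, long for a gene of a small protein, so a level per exon length may understate it.

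**Figure D1:**
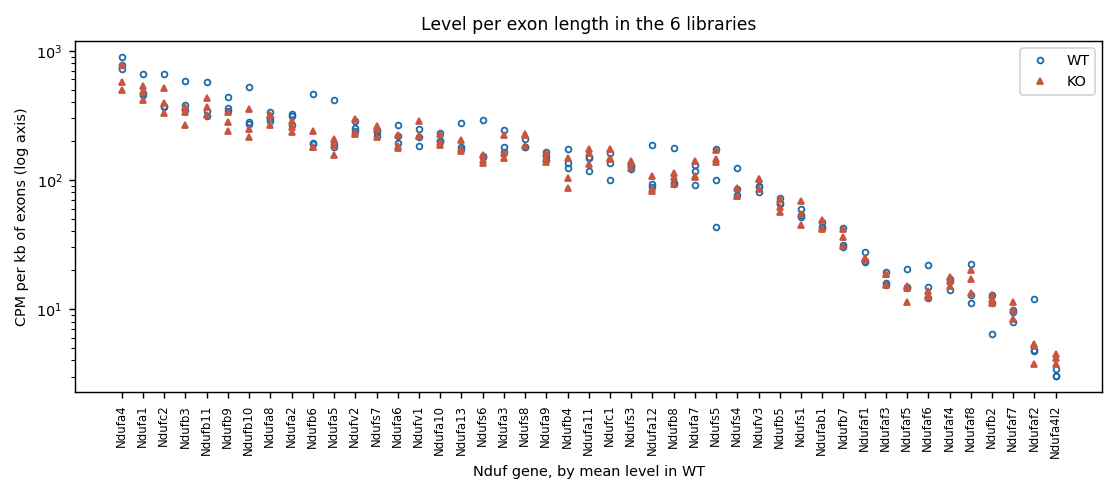
Level of the Nduf genes reported here in each library, in CPM per kb of annotated exons on a log axis, with genes ordered by their mean in WT. Open circles are the 3 WT and filled triangles the 3 KO libraries. Ndufa4 stands highest and Ndufa4l2 lowest, and the Ndufaf genes gather at the right end.

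The 7 nuclear core subunits differed little between WT mice. They include Ndufv1, Ndufv2 and Ndufs1 in the N module, which hold the flavin and iron-sulfur clusters that receive electrons from NADH, and Ndufs3, Ndufs7 and Ndufs8 in the Q module. The median SD of log2 CPM between WT mice was 0.11 for these genes, beside 0.30 for the 29 accessory subunits and 0.30 over all genes tested. Between KO mice the medians were 0.18 for the core, 0.18 for the accessory subunits and 0.26 over all genes. Their median log2 fold change was 0.08, with 6 of 7 above 0, and it was 0.06 without WT 2. None of the 7 passed.

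Ndufv1, which binds FMN and NADH, had 486, 653 and 569 CPM in WT and 574, 582 and 753 CPM in KO. Ndufv2, its iron-sulfur partner, had 541, 612 and 518 CPM in WT and 632, 509 and 491 CPM in KO. Ndufs1, the largest subunit, had 418, 435 and 482 CPM in WT and 363, 443 and 557 CPM in KO. In all 3 genes the groups overlapped, and the fold changes were 0.16 (SE 0.20), -0.03 (SE 0.19) and 0.03 (SE 0.20) on the log2 scale. Ndufs3 had 282, 264 and 277 CPM in WT and 298, 268 and 306 CPM in KO. The groups overlapped, with KO 3 the highest library. Ndufs7, which carries the last cluster before ubiquinone, had 379, 401 and 416 CPM in WT and 451, 371 and 424 CPM in KO. Ndufs8, with a pair of clusters, had 233, 266 and 232 CPM in WT and 288, 235 and 292 CPM in KO. Ndufs3, Ndufs7 and Ndufs8 had log2 fold changes of 0.06 to 0.16, each smaller than its SE, which ran from 0.16 to 0.18.

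The accessory subunits showed a different pattern across libraries. Their median log2 fold change was -0.15, with 21 of 29 below 0, beside -0.002 and 50.2% below 0 over all genes tested. This shift came with a single WT library. WT 2 was the highest of the 6 libraries for 21 of the 29 accessory genes and for 0 of the 7 core genes. Counting Ndufa4 and Ndufa4l2 as well, it was the highest for 22 of 38 subunits (57.9%), against 27.2% of all genes tested. Without WT 2 the accessory median was 0.01, with 18 of 29 above 0, and the median over all 38 subunits went from -0.09 to 0.03. WT 2 also had the largest mitochondrial share of counts. With mitochondrial genome genes left out of the fit, the median over all 38 subunits was -0.082, against -0.089 with them. This refit keeps WT 2 and is no test of the part of that share in the result, which was not tested.

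**Figure D2:**
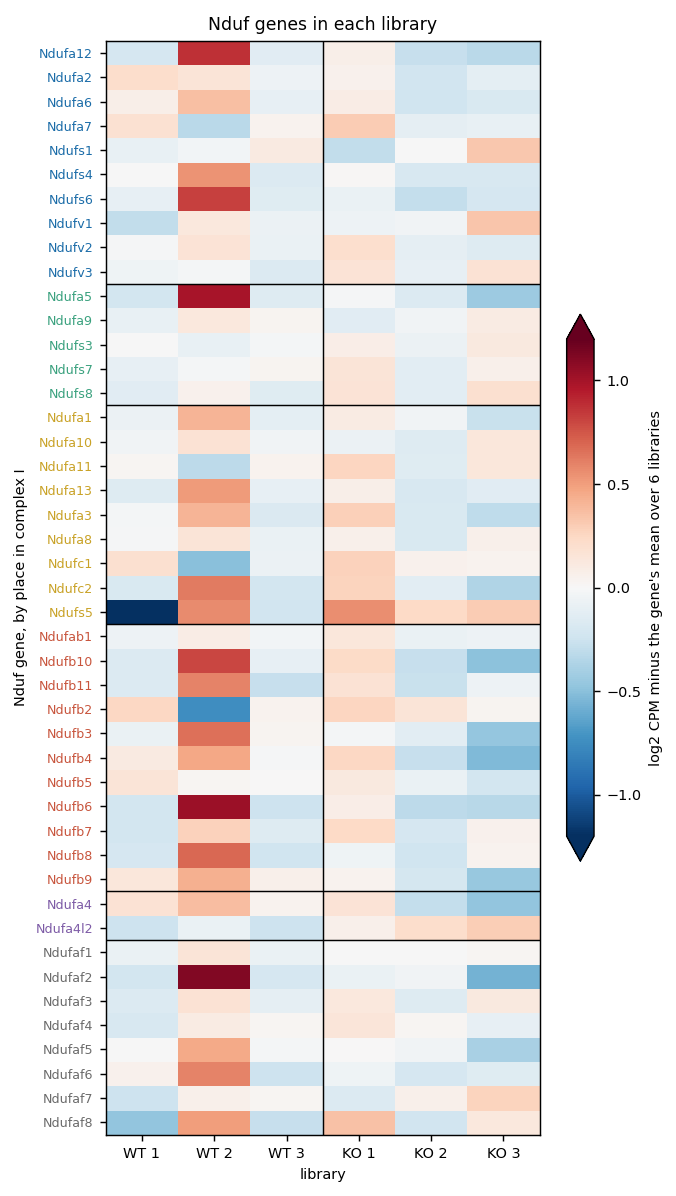
Each cell shows the log2 CPM of a reported Nduf gene in a library minus the mean of that gene over the 6 libraries, with genes in rows grouped from top to bottom as N module, Q module, proximal membrane arm, distal membrane arm, Ndufa4 and Ndufa4l2, and assembly factors. The WT 2 column is red for most accessory subunits and pale for the core subunits, and blue for Ndufb2 and Ndufc1.

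In the N module, the 10 genes had a median log2 fold change of -0.12, with 6 below 0. The lowest was Ndufs6, a zinc-binding subunit, with 139, 262 and 134 CPM in WT and 140, 122 and 129 CPM in KO. WT 2 stood alone and the remaining WT values fell within the KO range. This gave a log2 fold change of -0.45 (SE 0.26), which became -0.07 without WT 2. The highest was Ndufv3, with 280, 285 and 257 CPM in WT and 323, 269 and 326 CPM in KO, a log2 fold change of 0.16 (SE 0.17). Ndufa12 behaved like Ndufs6, with 139, 295 and 146 CPM in WT and 169, 133 and 128 CPM in KO. Ndufs4, whose loss in mice is a model of Leigh syndrome, had a log2 fold change of -0.27 (SE 0.21), and -0.03 without WT 2. Ndufa2, Ndufa6 and Ndufa7 had values of -0.20, -0.23 and 0.07.

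In the Q module the outlying gene was Ndufa5, an accessory subunit at the surface of the matrix arm. It had 186, 430 and 195 CPM in WT and 214, 192 and 160 CPM in KO, so that WT 2 alone exceeded KO 1. The log2 fold change of -0.52 (SE 0.32), the lowest of all subunits, was -0.01 without that library. The gene (ENSMUSG00000023089.12) lies on chromosome 6 from 24518666 to 24528013 (mm10, minus strand). Ndufa9, which holds NADPH near the ubiquinone site, had a log2 fold change of -0.05 (SE 0.17). The module's median was 0.07, with Ndufs8 highest.

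The 9 genes of the proximal membrane arm had a median log2 fold change of -0.06, and all 9 were above 0 without WT 2. The lowest was Ndufa13, also known as Grim19, with 217, 343 and 224 CPM in WT and 253, 211 and 219 CPM in KO, a log2 fold change of -0.20 (SE 0.22). Ndufc1 and Ndufa11 differed from their neighbours in being lowest in WT 2, at 150 and 129 CPM, beside 203 to 257 and 145 to 191 CPM in the other 5 libraries. Their log2 fold changes were 0.22 (SE 0.21) and 0.16 (SE 0.19). Ndufa1, Ndufa3, Ndufa8, Ndufa10 and Ndufc2 ranged from -0.18 to -0.04. The highest, Ndufs5, is taken up below with its genomic copy.

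The 11 genes of the distal membrane arm had the lowest module median, -0.23, with 8 below 0, and WT 2 was the highest library for 8 of them. The median was 0.006 without WT 2. KO 3 was the lowest library for 6 of the 11, beside 26.6% of all genes tested. Ndufb6 was lowest, with 127, 303 and 125 CPM in WT and 157, 119 and 118 CPM in KO. Its log2 fold change was -0.49 (SE 0.33), and 0.06 without WT 2, so that its direction rests on that library. Ndufb2 was highest, with 72.2, 36.3 and 62.4 CPM in WT and 72.7, 67.9 and 62.3 CPM in KO, a log2 fold change of 0.25 (SE 0.24), and here WT 2 was the lowest library. Exons of Ndufb2 share 146 bases with Braf on the opposite strand, and whether counting used strand is not given in the sources used here. The same holds for Ndufb5, which shares 616 bases with Mrpl47, and Ndufb6, which shares 257 bases with Smim27. It also holds for Ndufab1, which shares 269 bases with Gm44986, and Ndufb11, which shares 117 bases with Rbm10. Some Nduf genes of other modules have such overlaps too. Ndufb3, Ndufb4, Ndufb8, Ndufb10 and Ndufb11 had log2 fold changes of -0.44 to -0.14. Ndufb5, Ndufb7 and Ndufab1, the acyl carrier protein, had values of -0.12, 0.06 and 0.00. Ndufb1-ps, which the annotation does not class as protein-coding and which was therefore not a member, had 229, 128 and 179 CPM in WT and 235, 178 and 127 CPM in KO.

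Ndufb9, a distal-arm subunit of the LYR protein family, was the only Nduf gene with every KO library below every WT library. Its libraries had 371, 455 and 354 CPM in WT and 347, 292 and 247 CPM in KO. The gap between the nearest libraries, WT 3 and KO 1, was small beside the spread within either group. The log2 fold change was -0.41 (SE 0.20, 95% interval -0.86 to 0.03, edgeR adjusted p = 0.434), and it was -0.30 without WT 2. Separation of this kind, KO lower, was seen in 9.39% of all genes tested, a larger share than 1 of 46. The gene (ENSMUSG00000022354.4) lies on chromosome 15 from 58933756 to 58939488 (mm10, plus strand).

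**Figure D3:**
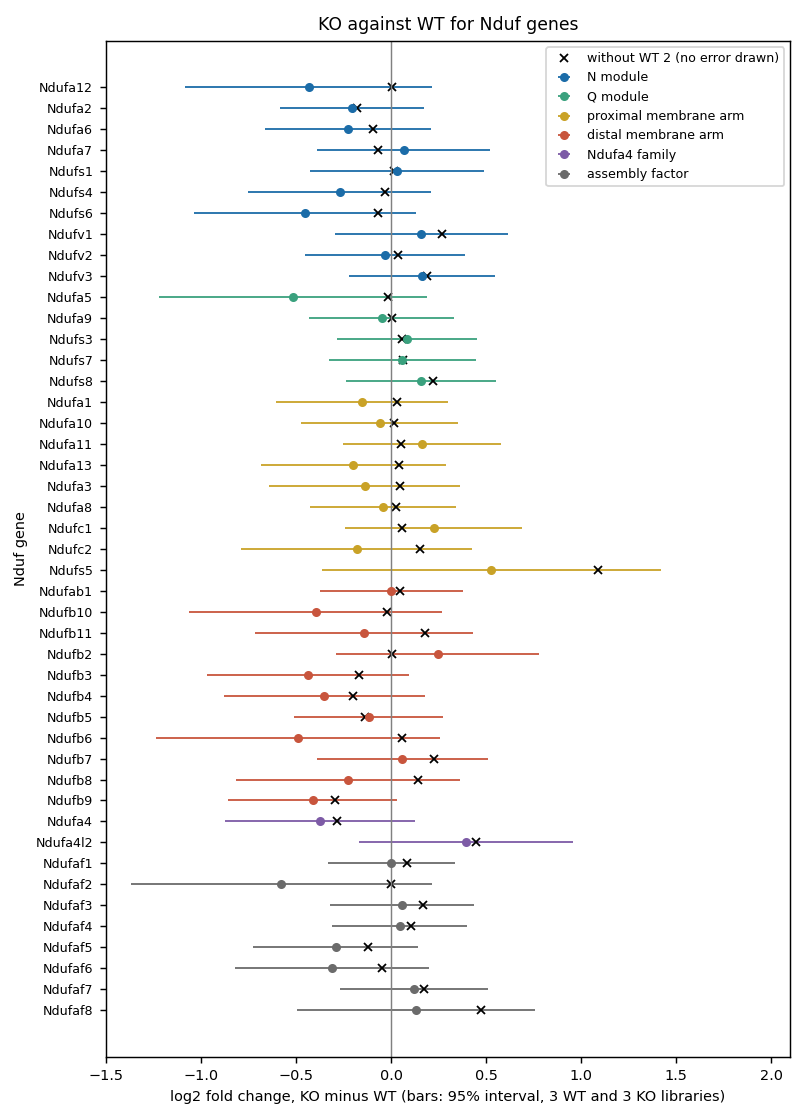
Log2 fold change of KO against WT for the Nduf genes reported here, each with its 95% interval over 3 WT and 3 KO libraries, coloured by place in the complex, and the value without WT 2 as a black cross. All intervals drawn include 0. The crosses of Ndufa5, Ndufb6 and Ndufaf2 lie near 0 and that of Ndufs5 lies at 1.09.

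Ndufa4 and Ndufa4l2 went opposite ways, neither past the threshold. Ndufa4 had 1081, 1244 and 992 CPM in WT and 1080, 788 and 693 CPM in KO, so that KO 1 lay within the WT range and KO 2 and KO 3 below it. Its log2 fold change was -0.37 (SE 0.22). Ndufa4l2, a gene known for induction by low oxygen, had 3.31, 3.74 and 3.33 CPM in WT and 4.14, 4.59 and 4.89 CPM in KO. It was the only Nduf gene with every KO library above every WT library, a pattern seen in 10.1% of all genes tested. Its log2 fold change was 0.39 (SE 0.25, edgeR adjusted p = 0.519) on 549 counts in all. Exons of Ndufa4l2 share 32 bases with Shmt2 on the opposite strand, which had 2426 counts.

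Ndufa4l2 is also known as a pericyte gene, and most of the listed markers of pericytes and smooth muscle lay in the same direction. Of 11 such markers 9 had a log2 fold change above 0, with a median of 0.41, 6 had an unadjusted p under 0.05 and 0 passed the threshold. The 2 below 0 were Rgs5, the most abundant of the 11, at -0.20 (SE 0.23), and Higd1b at -0.19 (SE 0.40). Over all genes tested, 50.2% were below 0 and 11.8% had an unadjusted p under 0.05. The summed level of the 11 markers was 429 to 599 CPM in WT and 483 to 728 CPM in KO. Of the 11, 4 had every KO library above every WT library, beside 10.1% of all genes tested. KO 3 was the highest library for 7 of the 11, and the median was 0.23 without WT 2 and KO 3. Their part in the Ndufa4l2 result was not tested.

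Ndufs5, a small subunit of the intermembrane space, had the highest log2 fold change of the 46 genes and a near-identical copy elsewhere in the genome. The gene (ENSMUSG00000028648.13) lies on chromosome 4 from 123712710 to 123718202 (mm10, minus strand). The copy, BC002163 (ENSMUSG00000081824.5), is annotated as a processed pseudogene and lies on chromosome 16 from 42955631 to 42955949 (mm10, plus strand). It was examined after its values were seen. Its transcript begins at the start codon of the Ndufs5 coding sequence and matches it over 319 bases with 2 differences, T81C and A105G, counted from 1 at the A of the start codon with the Ndufs5 base first. Bases 61 to 130 of each, from the GENCODE M21 transcripts, are shown because, within the matched stretch, the genes differ only at these positions, in capitals. How reads matching both genes were counted is not given in the sources used here.
Ndufs5: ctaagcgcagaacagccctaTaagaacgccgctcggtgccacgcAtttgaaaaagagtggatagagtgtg
BC002163: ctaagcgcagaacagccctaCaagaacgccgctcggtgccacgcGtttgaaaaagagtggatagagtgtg

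The counts assigned to these genes were divided differently in the 2 genotypes. Counts of Ndufs5 were 912, 2235 and 2905 in WT, against 3245, 2768 and 2545 in KO. Counts of BC002163 were 3427, 3720 and 2475 in WT, against 201, 366 and 502 in KO. The copy thus took 79.0%, 62.5% and 46.0% of the summed counts in WT and 5.83%, 11.7% and 16.5% in KO, with Wilson 95% intervals no wider than 44.7% to 47.3% for WT 3. Every WT share was above every KO share. The mean share was 62.5% ± 16.5 (SD, n = 3) in WT and 11.3% ± 5.33 (SD, n = 3) in KO, with a two-sided exact permutation p of 0.1, the smallest that 3 against 3 allows, and 0.3 adjusted over the 6 copies compared.

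The level of Ndufs5 was 36.8, 149 and 85.5 CPM in WT, against 148, 119 and 124 CPM in KO. WT 1 and WT 3 lay below all KO libraries and WT 2 level with the highest. The log2 fold change was 0.53 (SE 0.40, edgeR adjusted p = 0.579). Without WT 2 the log2 fold change was 1.09 (SE 0.32, edgeR adjusted p = 0.482), and without WT 1 it was 0.15. The log2 fold change of BC002163 itself was -3.22 (SE 0.48, edgeR adjusted p = 0.0779), which did not pass, while DESeq2 gave an adjusted p of 0.000333. Over the 6 fits that each left out 1 library, its log2 fold change ran from -3.62 to -2.69 and its edgeR adjusted p from 0.0371 to 0.397. The 2 genes summed had 175, 397 and 158 CPM in WT and 157, 135 and 149 CPM in KO. Summed in this way, WT 2 stood alone and the other 5 libraries lay between 135 and 175 CPM.

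**Figure D4:**
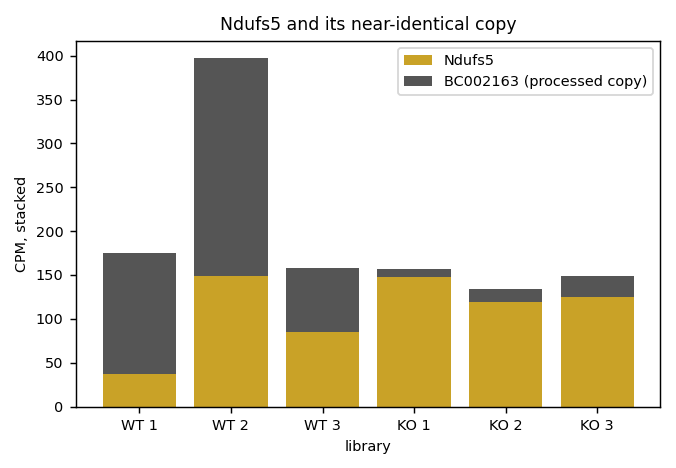
CPM of Ndufs5 (gold) and of its processed copy BC002163 (grey), stacked, in each library. The grey part is large in the 3 WT and small in the 3 KO libraries, and the stacked height is similar in all libraries but WT 2.

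In all, 8 Nduf genes had a processed pseudogene copy of at least 95% identity over at least 150 bases, 9 copies in total. Shares were compared for 6 of these copies, the most counted copy of each of the 6 genes whose copies had the most counts, chosen after these were seen. For Ndufab1, its copy Gm4459 took 17.7% ± 1.04 (SD, n = 3) of the summed counts in WT and 13.8% ± 0.483 (SD, n = 3) in KO, with no overlap and a two-sided exact permutation p of 0.1. The copies of Ndufa12, Ndufs3, Ndufs6 and Ndufb4 took mean shares of 2.60% to 13.2% in WT and 2.71% to 11.3% in KO, with exact permutation p of 0.4 to 0.8. The Ndufab1 share leaves out a second copy, Ndufab1-ps, which had 3943 counts. The levels of Nduf genes with copies are uncertain. These shares do not bound by how much, because the counting of reads that match both genes is not known.

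Of the assembly factors, the 8 Ndufaf genes had a median log2 fold change of 0.02, with 3 below 0, and 0 passed. WT 2 was the highest library for 6 of the 8. Ndufaf1, a chaperone of the membrane arm, had 34.9, 41.2 and 35.1 CPM in WT and 36.9, 36.9 and 37.5 CPM in KO. Ndufaf2, a paralogue of Ndufa12 that holds its place during assembly, had 14.2, 35.7 and 14.3 CPM in WT and 15.6, 16.1 and 11.1 CPM in KO. Its log2 fold change of -0.58 (SE 0.35) was the lowest of the 46 genes and became -0.003 without WT 2. Ndufa12 and Ndufaf2 thus shared the same high library.

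Ndufaf3 and Ndufaf4 form a pair that acts on the Q module. Ndufaf3 had 27.8, 35.2 and 28.9 CPM in WT and 33.9, 27.9 and 33.7 CPM in KO, and Ndufaf4 had 54.9, 67.1 and 63.9 CPM in WT and 69.4, 63.9 and 58.5 CPM in KO. Both overlapped, and their changes were 0.06 (SE 0.17) and 0.05 (SE 0.16) on the log2 scale. Ndufaf5 hydroxylates an arginine of Ndufs7, and Ndufaf7 is an arginine methyltransferase. Ndufaf5 had 26.7, 36.8 and 26.3 CPM in WT and 26.8, 25.9 and 20.4 CPM in KO, and Ndufaf7 had 27.7, 34.3 and 33.4 CPM in WT and 29.4, 34.4 and 39.8 CPM in KO. The groups overlapped in both genes, with KO 3 lowest for Ndufaf5 and highest for Ndufaf7. Ndufaf6 had 18.4, 26.9 and 14.9 CPM in WT and 17.1, 15.4 and 16.0 CPM in KO. Ndufaf8, a partner of Ndufaf5, had 9.37, 18.5 and 10.8 CPM in WT and 16.7, 11.1 and 14.3 CPM in KO. Its log2 fold change went from 0.13 (SE 0.28) to 0.47 without WT 2.

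Of 12 other complex I assembly factor genes, 11 were found by symbol and tested, and 0 passed. Of the 11, 9 had a log2 fold change above 0, with a median of 0.09. Over all genes tested 50.2% were below 0, with a median of -0.002. Foxred1, a flavoprotein of late assembly, had 83.1, 97.7 and 92.5 CPM in WT and 106, 107 and 123 CPM in KO, with no overlap between the groups. The log2 fold change was 0.29 (SE 0.16, edgeR adjusted p = 0.473). Acad9 and Ecsit, of the complex that builds the membrane arm with Ndufaf1, stood at 0.36 (SE 0.25) and 0.18 (SE 0.16) on the log2 scale. Timmdc1, of the same complex, had -0.16 (SE 0.20).

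The 7 subunits encoded in mitochondrial DNA, which form the proton-pumping core of the membrane arm, all had log2 fold changes below 0, and 0 passed. The median was -0.44, and -0.23 without WT 2, with 0 of the 7 above 0. Without both WT 2 and KO 3 it was -0.05, with 2 of the 7 above 0. Values were -0.20 for mt-Nd1, -0.46 for mt-Nd2, -0.36 for mt-Nd3, -0.44 for mt-Nd4, -0.41 for mt-Nd5 and -0.60 for mt-Nd6. mt-Nd4l, at -1.92 (SE 0.70, edgeR adjusted p = 0.377), had 226, 1484 and 164 CPM in WT and 175, 170 and 148 CPM in KO, and only WT 2 was far from the rest. WT 2 was the highest library for 6 of these 7 genes and KO 3 the lowest for 6, the same libraries that hold the extremes of the mitochondrial share.

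**Figure D5:**
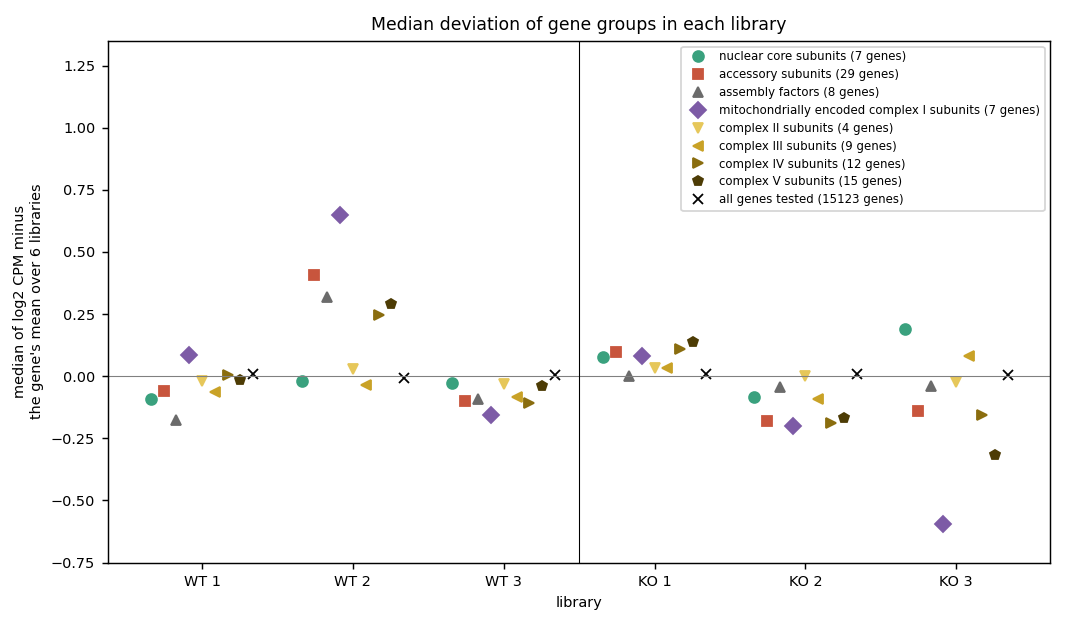
Median over the genes of a group of log2 CPM minus the gene's mean over the 6 libraries, for each library. Medians of the accessory subunits, assembly factors, mitochondrially encoded subunits and complexes IV and V are high in WT 2. The medians of the nuclear core subunits and complexes II and III lie near 0 there. In KO 3 the lowest medians are those of the mitochondrially encoded subunits and complex V.

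Of the 40 nuclear subunit genes of complexes II to V, 28 had a log2 fold change below 0 and 0 passed. Their median was -0.14, and -0.007 without WT 2. The complexes differed: the medians were -0.17 for complex IV (9 of 12 below 0) and -0.25 for complex V (13 of 15 below 0), but 0.02 for complex II (2 of 4 below 0) and 0.04 for complex III (4 of 9 below 0). In WT 2 the median deviation from the mean of each gene was 0.25 for complex IV and 0.29 for complex V, beside 0.41 for the accessory subunits, 0.03 for complex II and -0.04 for complex III. Genes within the latter 2 complexes were mixed. WT 2 was the highest library for 4 and the lowest for 3 of the 9 complex III genes. For the 4 complex II genes it was the highest for 2 and the lowest for 1. In KO 3 the median deviation was -0.16 for complex IV and -0.32 for complex V. It was -0.14 for the accessory subunits, -0.02 for complex II and 0.08 for complex III. KO 3 was the lowest library for 11 of the 15 complex V genes and 20 of all 40, beside 26.6% of all genes tested. Without WT 2 the complex V median was -0.06, with 5 of 15 above 0. The lowest unadjusted p belonged to Atp5d (log2 0.40, SE 0.19) and Uqcrb (log2 -0.60, SE 0.30), then Atp5j (log2 -0.42, SE 0.22) and Cox7a2 (log2 -0.36, SE 0.19). No test of the difference between complex I and the other complexes was made. In WT 2 the core median lay 0.43 below the accessory median on the log2 scale, and in KO 3 it lay 0.33 above it. In the other 4 libraries the medians differed by at most 0.10.

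Gene length went along with the WT 2 deviation. Across the 46 Nduf genes, the log2 CPM in WT 2 minus the mean of WT 1 and WT 3 had a Spearman correlation of -0.45 with exon length, and of -0.28 across 15110 tested genes. The same deviation had a correlation of -0.63 with the fold change across the 46 genes, and -0.40 across all genes. The fold change contains WT 2, so the latter pair of values is not independent of it. Genes share the 6 libraries and are not independent replicates, and these values are descriptions.

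Regulators of respiratory genes were measured too. Of 10 such genes 0 passed the threshold and 1 had an unadjusted p under 0.05, beside 11.8% of all genes tested. Esrra, the nuclear receptor ERR alpha, which acts with Ppargc1a on genes of oxidative metabolism, had 55.3, 80.8 and 78.3 CPM in WT and 113, 103 and 142 CPM in KO. All KO libraries lay above all WT libraries, as in 10.1% of all genes tested. The log2 fold change was 0.74 (SE 0.21, edgeR adjusted p = 0.323), and 0.84 without WT 2. Tfam, which packages and transcribes mitochondrial DNA, had 47.4, 53.9 and 48.7 CPM in WT and 44.4, 44.2 and 37.3 CPM in KO. All its KO libraries lay below all its WT libraries, as in 9.39% of all genes tested. The log2 change was -0.25 (SE 0.15, edgeR adjusted p = 0.51). Gabpb1 and Ppargc1a had values of -0.29 (SE 0.20) and -0.39 (SE 0.32).

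The promoters of Nduf genes were searched for motifs of such regulators, on both strands of a window from 250 bases before to 50 bases after the RefSeq gene start (GRCm38.p6). Windows were found for 40 of the 46 genes, 42 windows in all. The NRF1 motif, GCGCAN followed directly by GCGC, was in 10 of 42 windows (23.8%), beside 4.60% of 32851 windows of all genes. Ndufa5 gave 2 overlapping windows that hold the same match, so 9 of the 40 genes held the motif. The YY1 motif AANATGGCG was in 8 windows (19.0%, beside 2.38%) and the ETS motif CCGGAAG in 6 (14.3%, beside 8.86%). The ERR motif TCAAGGTCA was in 0, beside 0.423%. Of the 42 windows, 20 held none of these motifs. A match is a description of letters and not a site. None of the 46 Nduf genes passed the expression test, with or without a match, so calls cannot be set against matches. The windows of Ndufb4, with 3 NRF1 matches, and Ndufs6, with an NRF1 match at -16 and a YY1 match at 34 from the start, are shown as the densest examples for these motifs, with the matches in capitals. The Ndufb4 window is chr16:37654319-37654618 and the Ndufs6 window chr13:73328433-73328732, both on the minus strand:
Ndufb4: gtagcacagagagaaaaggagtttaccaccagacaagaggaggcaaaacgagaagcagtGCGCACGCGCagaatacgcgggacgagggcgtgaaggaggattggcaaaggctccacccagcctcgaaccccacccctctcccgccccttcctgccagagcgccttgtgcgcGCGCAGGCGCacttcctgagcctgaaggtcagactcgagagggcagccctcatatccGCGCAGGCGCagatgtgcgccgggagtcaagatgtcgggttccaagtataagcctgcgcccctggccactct
Ndufs6: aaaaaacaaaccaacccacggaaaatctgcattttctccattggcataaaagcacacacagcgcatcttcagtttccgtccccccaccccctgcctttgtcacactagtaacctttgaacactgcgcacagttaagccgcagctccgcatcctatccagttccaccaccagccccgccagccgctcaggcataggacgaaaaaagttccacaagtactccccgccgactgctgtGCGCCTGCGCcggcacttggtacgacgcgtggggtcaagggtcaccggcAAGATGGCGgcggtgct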

How the data were processed

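The values analysed are raw counts per gene, whole numbers that the authors deposited unnormalized. The submitters' processing notes name mm10 as the build, HISAT2 2.1.0, featureCounts 1.6.2 and DESeq2. No source used here gives the strand setting or annotation release. Columns were matched to samples by name, and of the 7 samples in the labels 6 had counts. Symbols, exon lengths and overlaps came from GENCODE M21.

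The filter was edgeR's filterByExpr with a minimum count of 10 and a minimum total of 15, and 99.9% of counts remained. KO was compared with WT by edgeR 4.0.16 (quasi-likelihood test, TMM scaling, genotype as the only term) in R 4.3.3 with limma 3.58.1, and p-values were Benjamini-Hochberg adjusted over all 15123 genes. The procedure was tested on simulated data. Log2 CPM used a prior count of 2, fold changes are KO minus WT, and intervals are at 95%. Copies were found with BLAST 2.17.0. Wilson intervals cover counting error only. Python 3.11.15, pandas 2.3.3 and matplotlib 3.10.9 made the tables and figures.

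The genes and lists were chosen with earlier results of these data known. By rule, values per library are given for Nduf genes past the threshold or without overlap, core subunits, Ndufaf genes, Ndufa4 and Ndufa4l2 (also the highest and lowest level) and the extremes of each module. Of lists other than cell type markers, the mitochondrially encoded subunits and up to 4 genes by lowest p are named. The values of 1 core subunit are not reported here, though it stays in the counts and medians. Ndufa12, Ndufc1, Ndufa11, Ucp1, Elovl3, Rgs5, Higd1b and BC002163 were singled out after their values were seen. As alternatives, the scaling was changed to DESeq2 size factors, the test to DESeq2 1.42.0, limma-voom or a robust fit, and the filter to none or to 50 counts in each of 3 libraries. A replicate block, sample quality weights, an adjusted p of 0.1 and leaving out mitochondrial genome genes, each library, or both WT 2 and KO 3 were also tried.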

Additional observations from a re-analysis of the deposited data

How the results depend on the processing

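Under 16 alternatives, the Nduf genes past the threshold numbered 0 throughout, and also at an adjusted p of 0.1. The count of all genes called did move, from 9 to 107 with DESeq2, 663 without a filter, 21 with sample quality weights, 5 with the replicate block, 27 without WT 2 and KO 3, and 0 to 17 when each library was left out in turn. The labels do not say that replicate numbers pair the samples. Correlations of same-numbered libraries were -0.11, 0.10 and 0.09, and those of other WT and KO libraries ran from -0.26 to 0.25. Such values cannot show whether samples were paired. The block left the Nduf calls at 0. The median over subunits was 0.071 without WT 2 and KO 3, against -0.089 with all libraries. Module, core and accessory medians and BC002163 were recomputed as alternatives chosen after seeing the data. Of the 46 genes, 22 kept their sign under all 16 alternatives, and 20 changed it when some single library was left out, most often WT 2 (13 genes). The depth and 3 mice a group limit how small a change could be seen.

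Without both WT 2 and KO 3, signs changed to -0.15 for Ndufs1, 0.14 for Ndufb6, 0.0969 for Ndufa5, 0.16 for Ndufa3, 0.29 for Ndufc2, 0.0768 for Ndufa13, 0.0809 for Ndufa12, 0.00454 for Ndufs4, 0.13 for Ndufb10, 0.11 for Ndufv2, 0.0837 for Ndufb8, 0.19 for Ndufb11, 0.13 for Ndufa1 and 0.15 for Ndufaf2. Sample quality weights gave -0.0640 for Ndufs1, 0.0276 for Ndufc2 and 0.00532 for Ndufv2. Ndufab1 was at -0.00493 with DESeq2 size factors, -0.00477 with DESeq2, -0.00267 with limma-voom and -0.00120 with the block, and Ndufaf1 at -0.00447 and -0.00364 with DESeq2 size factors and DESeq2. The cause was not tested.

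With 1 library left out, log2 fold changes ran from -0.25 to 0.0312 for Ndufa1, from -0.15 to 0.0145 for Ndufa10, from -0.62 to 0.00307 for Ndufa12, from -0.32 to 0.0440 for Ndufa13, from -0.33 to 0.0465 for Ndufa3, from -0.0730 to 0.18 for Ndufa7, from -0.0886 to 0.0356 for Ndufa8. They ran from -0.12 to 0.0131 for Ndufa9, from -0.0649 to 0.0449 for Ndufab1, from -0.0399 to 0.0814 for Ndufaf1, from -0.00762 to 0.17 for Ndufaf3, from -0.0356 to 0.11 for Ndufaf4, from -0.0525 to 0.47 for Ndufaf8, from -0.30 to 0.18 for Ndufb11. The remaining ranges were from -0.71 to 0.0599 for Ndufb6, from -0.0444 to 0.23 for Ndufb7, from -0.39 to 0.14 for Ndufb8, from -0.36 to 0.15 for Ndufc2, from -0.14 to 0.18 for Ndufs1 and from -0.15 to 0.0369 for Ndufv2.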
